A study of Saccharomyces cerevisiae with 22 samples.

Results

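The MRPL genes of budding yeast encode proteins of the large subunit of the mitochondrial ribosome, called the 54S subunit in this organism. The 34 genes that carry an MRPL name were taken by their systematic identifiers from a count table of 7126 entries, and all 34 passed the filter on low counts. A further 12 proteins of the same subunit have other names (IMG1, MHR1, MRX14 and others) and were kept apart for comparison. PolyA RNA was sequenced from 22 libraries of the laboratory strain W303, in 4 groups that all grew in raffinose medium and were given 2% galactose for 4 h. PSD1 cells (6 libraries) held PSD1 behind the galactose-driven GAL1-10 promoter on a multicopy 2u plasmid. PSD1 pdr3-deletion cells (6 libraries) held the same plasmid and lacked the PDR3 gene. V5-PSD1 cells (5 libraries) expressed a V5-tagged PSD1 from the same promoter and kind of plasmid. Empty-vector cells (5 libraries) held a 2u plasmid without the insert, so galactose was common to all 4 groups. A pdr3 deletion with the empty vector was not analysed here, and the labels do not say whether a group came from 1 clone or from several.

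Mitochondrial ribosomes translate the few proteins that mitochondrial DNA encodes, most of them core subunits of the respiratory chain and of ATP synthase. The ribosomal RNA of the large subunit is made inside the organelle, whereas its proteins are encoded in the nucleus, made in the cytosol and imported. Many of their mRNAs are bound after the stop codon by Puf3, an RNA-binding protein that in glucose promotes their decay and that also guides mRNAs to the mitochondrial surface. PSD1 encodes the phosphatidylserine decarboxylase of the mitochondrial inner membrane, and PDR3 encodes a transcription factor of drug resistance genes. The title of the series places these strains in a study of mitochondrial import stress.

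The letters of the Puf3 element, TGTANATA, were found on the sense strand within 200 bases after the stop codon in all 34 MRPL genes (100%). The same window held them in 844 of 6002 nuclear coding genes (14.1%). The following 24-base stretches, 5′ to 3′ on the gene's strand of the R64 (sacCer3) reference from RefSeq, come from genes described below, among them the 4 with the largest and the 2 with the smallest change in PSD1 cells, and capitals mark the element.
MRPL28: tctcctgcTGTAAATAactgatga
MRPL31: atttcatcTGTATATAgtttaatc
MRPL25: tctaatcaTGTAAATAattttgtg
MRPL44: agcaagccTGTAAATAatatatat
MRPL23: tcaatccaTGTATATAtttatctg
MRPL13: taatatccTGTACATAtatatact
MRPL9: tacaatcaTGTACATAcatcaata
MRPL10: ttctcactTGTACATAccttaaga
They lie at chrIV:1386540-1386563 (plus strand) for MRPL28, chrXI:185228-185251 (minus) for MRPL31, chrVII:637011-637034 (minus) for MRPL25 and chrXIII:720857-720880 (minus) for MRPL44. Those of MRPL23, MRPL13, MRPL9 and MRPL10 lie at chrXV:612538-612561 (plus), chrXI:450361-450384 (minus), chrVII:936026-936049 (minus) and chrXIV:103078-103101 (minus). A cytosine stood 2 bases before the element in the sites of MRPL25, MRPL44, MRPL23, MRPL13, MRPL9 and MRPL10, and not in those shown for MRPL28 and MRPL31. Genes with the largest and with the smallest changes thus carried the element. The sequence is that of the reference strain, not of W303.

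Libraries held 8152941 to 20839061 counts, and the 34 MRPL genes took 0.392% to 0.717% of them. A single MRPL gene had between 223 and 6047 counts in a library. The labels were checked against both manipulated genes. PSD1 mRNA ran from 8094 to 24968 CPM (counts scaled to a common library total, with TMM library sizes) in PSD1 cells, from 13509 to 27217 CPM in PSD1 pdr3-deletion cells and from 19027 to 30494 CPM in V5-PSD1 cells, against 240.2 to 603 CPM with the empty vector. PDR3 mRNA stayed at or below 0.240 CPM in every PSD1 pdr3-deletion library, against 145 to 224 CPM in PSD1 cells. The labels do not say that replicates came from separate cultures, so p-values measure the spread between these libraries, some of which may be technical repeats. Differences were tested with edgeR's quasi-likelihood test and called at a Benjamini-Hochberg adjusted p under 0.05 over 6278 genes. All adjusted p-values below come from that fit.

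The first comparison asked how MRPL mRNAs stood in cells that overproduced untagged Psd1. Of the 34 MRPL genes, 33 rose in PSD1 cells against the empty vector and none fell, while 29.7% of all genes tested rose and 26.9% fell. The median log2 fold change of the 34 genes was 0.55, a 1.47-fold higher level, against 0.019 over all genes tested. Single genes ranged from 0.15 for MRPL10 to 0.89 for MRPL28. In 28 of 34 genes every PSD1 library lay above every empty-vector library on the CPM scale, which held for 18.4% of all genes tested. The 6 genes whose groups overlapped were MRPL3, MRPL9, MRPL10, MRPL15, MRPL17 and MRPL32. Within library series 5 alone 28 genes rose (median 0.61) and within series 6 alone 30 rose (median 0.46), with all 34 values positive in both. All values are shares of the polyA RNA of bulk cultures, so more mRNA per cell and more cells with such mRNA cannot be told apart.

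The largest change was that of MRPL28 (YDR462W, chrIV:1386073-1386516, plus strand), which encodes mL40, a protein found in mitochondrial ribosomes and not in bacterial ones. Its mRNA ran from 146 to 165 CPM (median 150.3) in the 6 PSD1 libraries, against 93.2, 75.8, 68.4, 82.4 and 88.7 CPM in the 5 empty-vector libraries. Every PSD1 library exceeded every empty-vector library by a wide margin (log2 fold change 0.89 ± 0.090 SE, adjusted p of 1.53e-07). MRPL31 (YKL138C, chrXI:185286-185681, minus strand), for mL60, ran from 215 to 308 CPM (median 243) in PSD1 cells, against 161, 114, 114, 132 and 160.3 CPM with the empty vector. The groups did not overlap, and PSD1 replicate 1 was the highest of all (log2 fold change 0.88 ± 0.12 SE, adjusted p of 7.24e-06). MRPL25 (YGR076C, chrVII:637104-637577, minus strand), for mL59, ran from 97.7 to 133 CPM (median 113) in PSD1 cells, against 69.7, 59.9, 49.6, 64.7 and 72.7 CPM with the empty vector. Its lowest PSD1 library, replicate 3, was still above the highest empty-vector library (log2 fold change 0.85 ± 0.094 SE, adjusted p of 4.75e-07). MRPL44 (YMR225C, chrXIII:720960-721403, minus strand), for mL53, is the only one of the 34 genes with an annotated intron. It ran from 64.5 to 78.0 CPM (median 74.3) in PSD1 cells, against 42.2, 37.4, 34.4, 42.0 and 51.5 CPM with the empty vector (log2 fold change 0.79 ± 0.096 SE, adjusted p of 1.28e-06). All 4 of these proteins belong to the mitochondria-specific class.

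At the other end, MRPL10 (YNL284C, chrXIV:103134-104102, minus strand), for uL15m, a core protein shared by all ribosomes, was the gene that did not pass. It ran from 207 to 236 CPM (median 210.2) in PSD1 cells, against 208, 178, 173, 198 and 211 CPM with the empty vector. The lowest PSD1 libraries lay among the highest empty-vector ones (log2 fold change 0.15 ± 0.071 SE, adjusted p of 0.0851). MRPL9 (YGR220C, chrVII:936074-936883, minus strand), for uL3m, whose bacterial counterpart reaches toward the peptidyl transferase centre, had the smallest change that passed. It ran from 131 to 165 CPM (median 148) in PSD1 cells, against 129.9, 124, 107, 125 and 146 CPM with the empty vector, and the groups overlapped through empty-vector replicate 5 (log2 fold change 0.22 ± 0.067 SE, adjusted p of 0.00788). Within the first library series alone its adjusted p was 0.205, and within the second it was 0.0548.

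**Figure D1:**
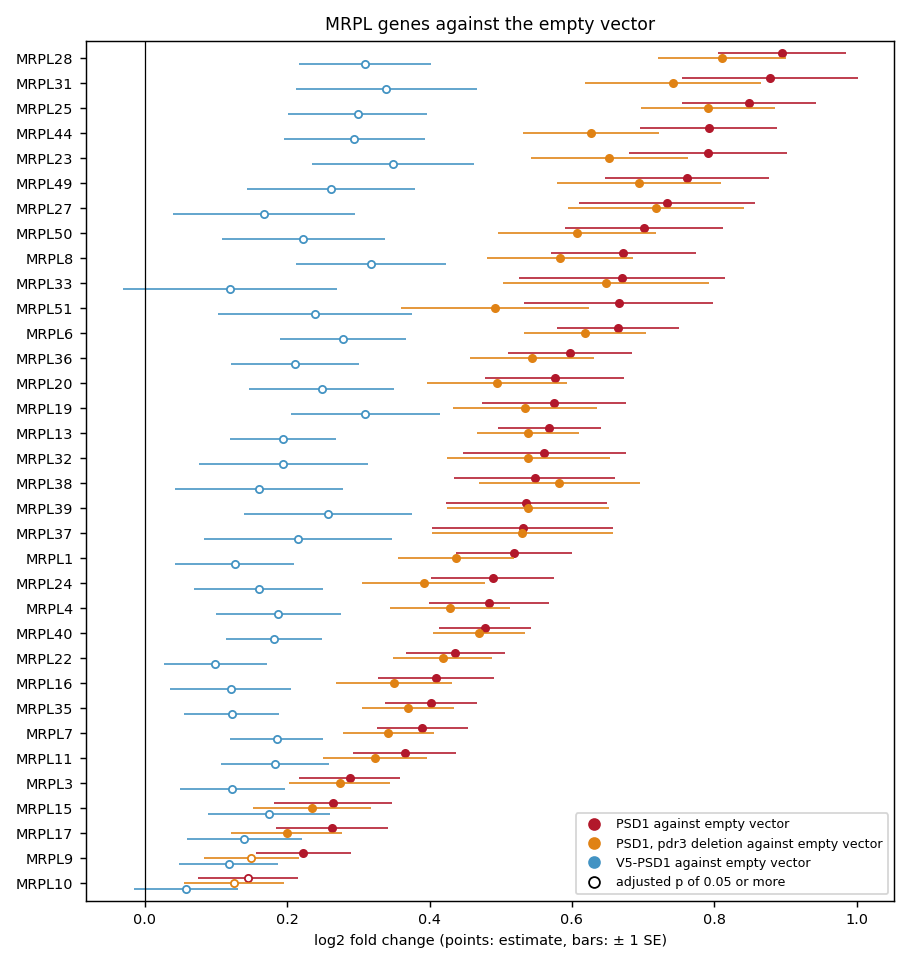
Log2 fold change of each MRPL gene (x axis, points with bars of 1 SE) against the empty vector for PSD1 cells (red), PSD1 pdr3-deletion cells (orange) and V5-PSD1 cells (blue), with genes (y axis) ordered by the PSD1 value. Filled points passed an adjusted p of 0.05 and open ones did not: 33 of 34 red, 32 of 34 orange and 0 of 34 blue points are filled, and the 3 sets share the empty-vector libraries.

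By the uniform naming of ribosomal proteins, 14 of the genes encode proteins shared by all ribosomes, 7 encode proteins shared with bacteria only, and 13 encode proteins specific to mitochondria. In PSD1 cells 13 of 14 universal genes rose (median log2 fold change 0.48), as did 7 of 7 bacterial-type genes (0.60) and 13 of 13 mitochondria-specific genes (0.58). Among the universal proteins, the gene of the L1 stalk protein (MRPL1) rose 1.43-fold and those of the factor-binding stalk base rose 1.29-fold (MRPL11, uL10m) and 1.49-fold (MRPL19, uL11m). Genes for proteins around the exit tunnel rose 1.35-fold (MRPL22, uL22m), 1.39-fold (MRPL40, uL24m) and 1.40-fold (MRPL4, uL29m). MRPL7, whose uL5m protein sits in the central protuberance, rose 1.31-fold, and MRPL16, whose uL16m protein lies near the tRNA sites, rose 1.33-fold. MRPL6 (uL6m), MRPL23 (uL13m), MRPL38 (uL14m) and MRPL33 (uL30m) rose 1.59-fold, 1.73-fold, 1.46-fold and 1.59-fold. The universal genes thus ranged from MRPL10, at 1.11-fold and not called, to MRPL23.

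The 7 bacterial-type genes spanned a narrower range. MRPL24 (bL28m), MRPL39 (bL33m) and MRPL32 (bL32m, a protein that the m-AAA protease matures before it joins the ribosome) rose 1.40-fold, 1.45-fold and 1.48-fold. MRPL36 (bL31m), MRPL8 (bL17m), MRPL50 (bL9m) and MRPL49 (bL21m) rose 1.51-fold, 1.59-fold, 1.63-fold and 1.70-fold. Of the mitochondria-specific genes not yet given, MRPL17 (mL46), MRPL15 (mL57), MRPL3 (mL44) and MRPL35 (mL38) changed least, with rises of 1.20-fold, 1.20-fold, 1.22-fold and 1.32-fold. MRPL3 and MRPL15 encode relatives of RNase III. MRPL37 (mL54), MRPL13 (mL50), MRPL20 (mL58), MRPL51 (mL43) and MRPL27 (mL41) rose 1.45-fold, 1.48-fold, 1.49-fold, 1.59-fold and 1.66-fold. The mitochondria-specific class therefore held both the 4 largest changes and several of the smallest.

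Levels per length are given as FPKM (fragments per kilobase of transcript, scaled for depth). Group means of the 34 genes ran from 195.2 to 726 FPKM in PSD1 cells, a 3.72-fold span, and from 134 to 408 FPKM with the empty vector, a 3.04-fold span. The median MRPL gene was at 310.4 FPKM in PSD1 cells and at 220.3 FPKM in empty-vector cells, against 58.4 FPKM for the median of all genes tested in either. MRPL31 was the most abundant per length over all libraries, with 726 ± 113 FPKM in PSD1 cells, 666 ± 67.6 FPKM in PSD1 pdr3-deletion cells, 483 ± 78.8 FPKM in V5-PSD1 cells and 401 ± 63.9 FPKM with the empty vector (SD, n = 6, 6, 5 and 5). MRPL37 came next, with 579 ± 93.1 FPKM, 584 ± 73.2 FPKM, 451 ± 69.7 FPKM and 408 ± 65.2 FPKM in the same order of groups. With the empty vector these genes were within their spread of each other, and MRPL37 had the higher mean. MRPL33 was the least abundant over all libraries, with 209.8 ± 29.4 FPKM, 209 ± 19.4 FPKM, 139 ± 23.2 FPKM and 134 ± 31.4 FPKM. In PSD1 cells and in PSD1 pdr3-deletion cells the lowest mean was instead that of MRPL9, at 195 ± 14.8 FPKM and 187 ± 5.08 FPKM. The order of the 34 genes by mean FPKM was similar in PSD1 and empty-vector cells (Spearman's rho 0.851 across 34 genes, a description since genes are not independent replicates).

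Proteins that join 1 particle in equal numbers were thus encoded by mRNAs that spanned over 3-fold per length in every group. MRPL37 mRNA ran from 136 to 197 CPM (median 147) in PSD1 cells, against 123, 93.8, 91.6, 96.8 and 131 CPM with the empty vector (log2 fold change 0.53 ± 0.13 SE, adjusted p of 0.00144). MRPL33 ran from 37.3 to 52.4 CPM (median 43.2) in PSD1 cells, against 34.3, 25.1, 19.0, 25.4 and 35.3 CPM with the empty vector (log2 fold change 0.67 ± 0.14 SE, adjusted p of 5.80e-04). The groups did not overlap for either gene, although the margin of both was narrow.

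In PSD1 pdr3-deletion cells, which lack Pdr3, most MRPL genes were likewise above the empty vector. Against the empty vector 32 of 34 MRPL genes rose and none fell, where 26.1% of all genes tested rose and 21.4% fell. The median log2 fold change was 0.53, against 0.019 over all genes tested, and single genes ranged from 0.13 (MRPL10) to 0.81 (MRPL28). MRPL28 ran from 129.5 to 159 CPM (median 143) in the 6 PSD1 pdr3-deletion libraries, all above the empty-vector values given above (log2 fold change 0.81 ± 0.090 SE, adjusted p of 8.47e-07). MRPL10 ran from 194 to 224 CPM (median 216) and did not pass (log2 fold change 0.13 ± 0.071 SE, adjusted p of 0.151). MRPL9 ran from 134 to 149 CPM (median 141) and did not pass either (log2 fold change 0.15 ± 0.067 SE, adjusted p of 0.0714). Both overlapped the empty-vector libraries. In 26 of 34 genes all PSD1 pdr3-deletion libraries lay above all empty-vector libraries, against 16.5% of all genes tested. This comparison shares its empty-vector libraries with the one before, so the likeness of the fold changes is not independent. Within library series 5 alone (3 libraries of each group) 13 genes passed and within series 6 alone 30 passed, with medians of 0.47 and 0.48, and all 34 genes were positive in both.

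The direct comparison of PSD1 pdr3-deletion with PSD1 cells asked whether loss of Pdr3 changed these mRNAs while PSD1 was overexpressed. None of the 34 genes rose or fell, and none had an unadjusted p under 0.05. DESeq2 and limma called 0 of them as well. Of all genes tested 0.0159% rose and 0.398% fell, so few genes of any kind passed. Log2 differences ran from -0.17 (MRPL51) to 0.035 (MRPL38) with a median of -0.051, 32 being negative and 2 positive. Their SEs ran from 0.060 to 0.14, so differences of about this size could not be told from 0. Over all 6278 genes tested the median was 0.0013, and 3109 were negative. Of all 2647 annotated genes with a coding length in the range of the MRPL genes 1846 were negative, with a median of -0.044. A lean toward negative values was thus also seen in that wider set, which includes the MRPL genes, but in a smaller share of it. Without PSD1 replicate 1, 21 of the 34 MRPL differences were negative and 13 positive. In 0 of 34 genes did all PSD1 pdr3-deletion libraries lie above all PSD1 libraries (0.0637% of all genes tested), and the groups overlapped for all 34.

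The smallest unadjusted p of that comparison belonged to MRPL44, which encodes mL53 as above. It ran from 56.9 to 74.5 CPM (median 63.6) in PSD1 pdr3-deletion cells, against 64.5 to 78.0 CPM (median 74.3) in PSD1 cells (log2 fold change -0.17 ± 0.090 SE, adjusted p of 0.935). MRPL51, for mL43, ran from 118 to 151 CPM (median 139.8) in PSD1 pdr3-deletion cells, against 136 to 194 CPM (median 152) in PSD1 cells (log2 fold change -0.17 ± 0.12 SE, adjusted p of 0.935). The groups overlapped for both genes, and replicate 6 of the pdr3 deletion was the lowest for MRPL51. MRPL23, for uL13m, ran from 149 to 174 CPM (median 171) in PSD1 pdr3-deletion cells, against 167 to 223 CPM (median 176) in PSD1 cells (log2 fold change -0.14 ± 0.10 SE, adjusted p of 0.935). MRPL24, for bL28m, ran from 141 to 161 CPM (median 156) in PSD1 pdr3-deletion cells, against 149 to 179.5 CPM (median 163) in PSD1 cells (log2 fold change -0.097 ± 0.082 SE, adjusted p of 0.935). The groups overlapped for both of these too, with the highest library a PSD1 one. Within library series 5 alone the 34 differences were all negative (median -0.099), and within series 6 alone 17 of 34 were positive (median -0.0017).

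In V5-PSD1 cells MRPL levels lay between those of PSD1 and empty-vector cells by their medians. Against the empty vector none of the 34 MRPL genes rose or fell in the edgeR test, where 2.53% of all genes tested rose and 0.494% fell. All 34 log2 fold changes were positive, from 0.058 (MRPL10) to 0.35 (MRPL23), with a median of 0.19 against 0.018 over all genes tested. Of all 2647 annotated genes with a coding length in the range of the MRPL genes 1906 were positive, with a median of 0.083. An unadjusted p under 0.05 was reached by 17 of the MRPL genes, DESeq2 called 1 (MRPL28) and limma called 0. MRPL28 was at 124, 97.7, 82.5, 101 and 101 CPM in V5-PSD1 cells, against the empty-vector values of 68.4 to 93.2 CPM listed before (log2 fold change 0.31 ± 0.093 SE, adjusted p of 0.0787). MRPL23 was at 174, 137, 110.1, 127 and 129 CPM in V5-PSD1 cells, against 123, 96.5, 83.0, 109 and 119.8 CPM with the empty vector (log2 fold change 0.35 ± 0.11 SE, adjusted p of 0.112). Replicate 1 of V5-PSD1 was the highest and replicate 3 the lowest in both, and the groups overlapped for all 34 genes. Full separation upward was thus seen in 0 of 34 MRPL genes and in 3.78% of all genes tested. The 34 values were positive with TMM scaling of all libraries, but 1 gene was negative in limma on FPKM, and 2 were negative within library series 6 alone. The median was 0.21 within series 5 and 0.11 within series 6, and no gene passed in either. Without V5-PSD1 replicate 3, 6 genes passed. Leaving out empty-vector replicate 5 or replicate 1 let 2 genes or 1 gene pass. With the replicate number as a block, a pairing that the labels do not state, 7 genes passed.

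Untagged PSD1 was then set against V5-PSD1 directly. Here 26 of 34 MRPL genes rose in PSD1 cells and none fell, where 20.3% of all genes tested rose and 20.1% fell. The median log2 fold change was 0.35 against 0.012 over all genes tested, and all 34 values were positive, from 0.087 (MRPL10) to 0.58 (MRPL28). In 11 of 34 genes every PSD1 library lay above every V5-PSD1 library, against 9.84% of all genes tested. MRPL28 ran from 146 to 165 CPM (median 150.3) in PSD1 cells, against 124, 97.7, 82.5, 101 and 101 CPM in V5-PSD1 cells, with no overlap (log2 fold change 0.58 ± 0.089 SE, adjusted p of 4.65e-05). MRPL25 ran from 97.7 to 133 CPM (median 113) in PSD1 cells, against 89.2, 77.4, 65.6, 71.2 and 85.8 CPM in V5-PSD1 cells, also with no overlap (log2 fold change 0.55 ± 0.093 SE, adjusted p of 1.21e-04). MRPL44 ran from 64.5 to 78.0 CPM (median 74.3) in PSD1 cells, against 60.3, 49.4, 43.2, 49.4 and 51.9 CPM in V5-PSD1 cells (log2 fold change 0.50 ± 0.095 SE, adjusted p of 3.53e-04). MRPL13, for mL50, had the lowest SD of the 34 genes among the PSD1 libraries. It ran from 215 to 236 CPM (median 229.6) in PSD1 cells, against 196, 164, 160.2, 169 and 188 CPM in V5-PSD1 cells (log2 fold change 0.37 ± 0.072 SE, adjusted p of 3.69e-04).

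For MRPL28, MRPL25, MRPL44 and MRPL13 the groups stayed apart, and even V5-PSD1 replicate 1, the highest of its group, lay below the lowest PSD1 library. The 8 genes that did not pass were MRPL3, MRPL9, MRPL10, MRPL11, MRPL15, MRPL17, MRPL37 and MRPL39. Their log2 fold changes ran from 0.087 to 0.32, and MRPL37 had an adjusted p of 0.0520. Within library series 5 alone 4 genes passed (median 0.37) and within series 6 alone 23 passed (median 0.32), with all 34 values positive in both. The PSD1 mRNA itself was lower in PSD1 than in V5-PSD1 cells (log2 fold change -0.69 ± 0.26 SE, adjusted p of 0.0383). The libraries of these groups overlapped, and a relation between PSD1 and MRPL levels was not tested.

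**Figure D2:**
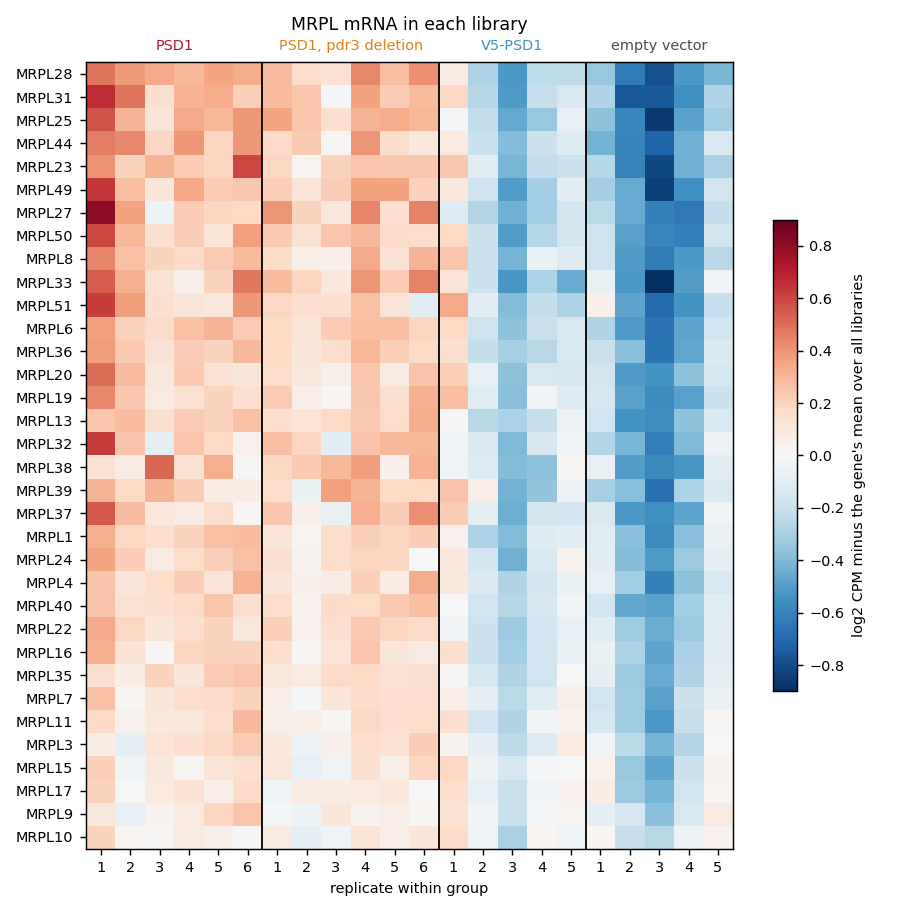
Log2 CPM of each MRPL gene (rows, ordered by the change in PSD1 cells) in each of the 22 libraries (columns), minus the gene's mean over all libraries, with red above and blue below that mean. Most PSD1 and PSD1 pdr3-deletion columns are red, most empty-vector columns are blue, and within V5-PSD1 replicate 1 is the highest in 31 genes and replicate 3 the lowest in 34.

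In V5-PSD1 and empty-vector cells nearly all MRPL genes were lowest in the same library, replicate 3 (34 and 32 of 34 genes). In the other 2 groups this was less shared. PSD1 replicate 3 was lowest in 14 genes and PSD1 pdr3-deletion replicate 2 in 18. A library's MRPL index, the median over the 34 genes of log2 CPM minus the gene's mean over all libraries, was used to describe its level. The index ran from 0.13 to 0.36 in PSD1 libraries, from 0.067 to 0.25 in PSD1 pdr3-deletion libraries, from -0.38 to 0.13 in V5-PSD1 libraries and from -0.58 to -0.12 in empty-vector libraries. PSD1 and PSD1 pdr3-deletion libraries overlapped, and each of their 12 libraries lay above each empty-vector library. In V5-PSD1 the index was 0.13, -0.17, -0.38, -0.17 and -0.074 in replicates 1 to 5. With the empty vector it was -0.16, -0.46, -0.58, -0.39 and -0.12. V5-PSD1 replicate 1 was the only library of its group inside the range of the PSD1 pdr3-deletion group.

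The spread of these mRNAs also differed from group to group. The SD of log2 CPM over the libraries of a group had a median over the 34 genes of 0.104 in PSD1, 0.087 in PSD1 pdr3-deletion, 0.174 in V5-PSD1 and 0.199 in empty-vector cells. Over all genes tested the medians were 0.183, 0.153, 0.145 and 0.134 in the same order. MRPL mRNAs thus varied less than the median gene in both untagged PSD1 groups and more than it in V5-PSD1 and empty-vector cells, which was not tested. The median gene was not matched for level (58.4 FPKM against 310.4 FPKM for the median MRPL gene in PSD1 cells). Library series was not removed from these SDs. Empty-vector replicate 3 had the lowest value of its group in 32 of 34 genes, and replicates 5 and 1 had the highest in 23 and 11. PSD1 replicate 1 had the highest value of its group in 26 of 34 genes, whereas the lowest was spread over 5 libraries. The summed level of the 34 genes was 6436 ± 362 CPM in PSD1 cells, 6193 ± 279 CPM in PSD1 pdr3-deletion cells, 5132 ± 593 CPM in V5-PSD1 cells and 4483 ± 583 CPM with the empty vector (SD).

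Other parts of the mitochondrial translation system were set beside the MRPL genes. In PSD1 cells against the empty vector 29.7% of all genes tested rose and 26.9% fell. Of the 12 other genes of the large subunit 11 rose in PSD1 cells against the empty vector (median log2 fold change 0.63), led by MRX14 (log2 fold change 0.98 ± 0.099 SE, adjusted p of 1.65e-07) and IMG1 (log2 fold change 0.89 ± 0.14 SE, adjusted p of 2.15e-05). Of 31 genes of the small (37S) subunit 30 rose (median 0.56), led by RSM19 (log2 fold change 0.95 ± 0.13 SE, adjusted p of 5.43e-06) and MRPS12 (log2 fold change 0.94 ± 0.15 SE, adjusted p of 3.90e-05). Both subunits thus had medians close to that of the MRPL genes. Among 7 mitochondrial translation factors 5 rose and 1 fell, the ribosome recycling factor RRF1 with the largest rise (log2 fold change 0.74 ± 0.098 SE, adjusted p of 3.71e-06) and the elongation-factor-like gene MEF2 with the fall (log2 fold change -0.70 ± 0.16 SE, adjusted p of 7.81e-04). Of 12 mitochondrial tRNA synthetases 9 rose, most of all MSF1 for phenylalanine (log2 fold change 0.82 ± 0.056 SE, adjusted p of 2.08e-09). Of 6 genes that modify the 21S rRNA or assist subunit assembly 3 rose and 1 fell, the pseudouridine synthase gene PUS5 rising (log2 fold change 0.51 ± 0.11 SE, adjusted p of 4.96e-04) and the ribose methyltransferase gene MRM1 falling (log2 fold change -0.20 ± 0.048 SE, adjusted p of 0.00128). With 6 genes in the list, nothing is read from that count.

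Nuclear genes of oxidative phosphorylation and genes of the cytosolic large subunit went the other way. Of 35 nuclear genes of oxidative phosphorylation 28 fell and none rose in PSD1 cells against the empty vector (median log2 fold change -0.47), with ATP2, the beta subunit of ATP synthase, lowest (log2 fold change -0.68 ± 0.13 SE, adjusted p of 1.69e-04). Of 76 genes of the cytosolic large subunit 68 fell and 1 rose (median -0.55). Of all genes tested 26.9% fell and 29.7% rose. In PSD1 pdr3-deletion cells against the empty vector 31 of the 35 and 69 of the 76 fell, where 21.4% of all genes tested did. In V5-PSD1 cells against the empty vector the medians of these lists were -0.025 and 0.076, and the MRPL median was 0.19. Cytosolic ribosomal genes have near-identical copies that share reads, so their single values are uncertain.

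**Figure D3:**
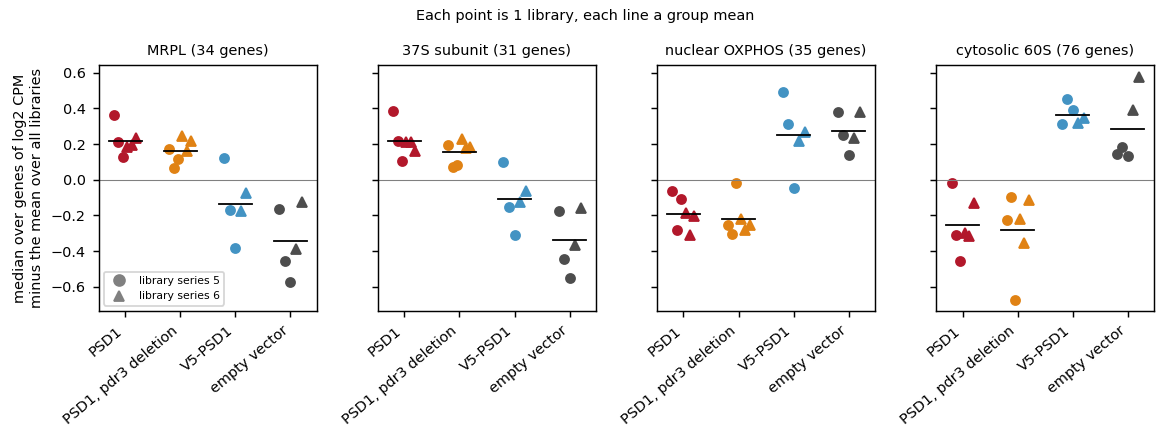
Index of each library (y axis, median over genes of log2 CPM minus the mean over all libraries) for the MRPL genes, the 37S genes, nuclear oxidative phosphorylation (OXPHOS) genes and cytosolic 60S genes, by group, with circles for library series 5, triangles for series 6 and lines for group means. PSD1 and PSD1 pdr3-deletion libraries are above all empty-vector libraries in the MRPL and 37S panels and below them in the OXPHOS and cytosolic 60S panels.

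Of 6 transcripts of known regulators 2 rose (33.3%), 1 fell (16.7%) and 3 did not pass in PSD1 cells against the empty vector. Of all genes tested 29.7% rose and 26.9% fell, so nothing is read from the count. HAP2, HAP3, HAP4 and HAP5 encode subunits of the CCAAT-binding activator of respiratory genes. HAP5 ran from 58.1 to 73.8 CPM in PSD1 cells, against 28.9 to 36.6 CPM with the empty vector, and rose without overlap (log2 fold change 0.96 ± 0.074 SE, adjusted p of 6.52e-09). HAP1, for a haem-responsive activator, fell just past the threshold (log2 fold change -0.28 ± 0.12 SE, adjusted p of 0.0491). HAP2 ran from 72.5 to 83.2 CPM in PSD1 cells, against 51.0 to 60.5 CPM with the empty vector (log2 fold change 0.41 ± 0.077 SE, adjusted p of 1.45e-04). HAP3 (log2 fold change 0.20, adjusted p = 0.193) and HAP4 (log2 fold change -0.25, adjusted p = 0.0998) did not pass, and HAP4 was lower in PSD1 than in V5-PSD1 cells (log2 fold change -0.33 ± 0.13 SE, adjusted p of 0.0449). PUF3 ran from 134 to 236 CPM in PSD1 cells, against 186 to 252 CPM with the empty vector, and did not pass (log2 fold change -0.18, adjusted p = 0.193). The groups overlapped for PUF3, and mRNA levels do not give the activity of these proteins.

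Within the MRPL genes the size of the change went with coding length. The 17 shorter genes (213 to 588 coding bases) had a median log2 fold change of 0.67 in PSD1 cells against the empty vector, and 17 of 17 rose. The 17 longer genes (645 to 1173 coding bases) had a median of 0.41, and 16 of 17 rose. Spearman's rho between coding length and log2 fold change was -0.72 across the 34 genes. Over 5779 annotated genes tested it was -0.36, and over the 2575 other genes within the length range of the MRPL genes it was -0.071. Of all 2647 annotated genes in that range 42.3% rose, with a median log2 fold change of 0.18. In PSD1 pdr3-deletion cells the rho of the MRPL genes was -0.73, and in V5-PSD1 cells it was -0.55 with -0.42 over all annotated genes. For PSD1 pdr3-deletion against PSD1 it was 0.14 for the MRPL genes and 0.475 over all annotated genes. Coding GC content showed no such order (rho 0.082). These are descriptions across genes that share libraries, and a part of library preparation in them was not tested.

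**Figure D4:**
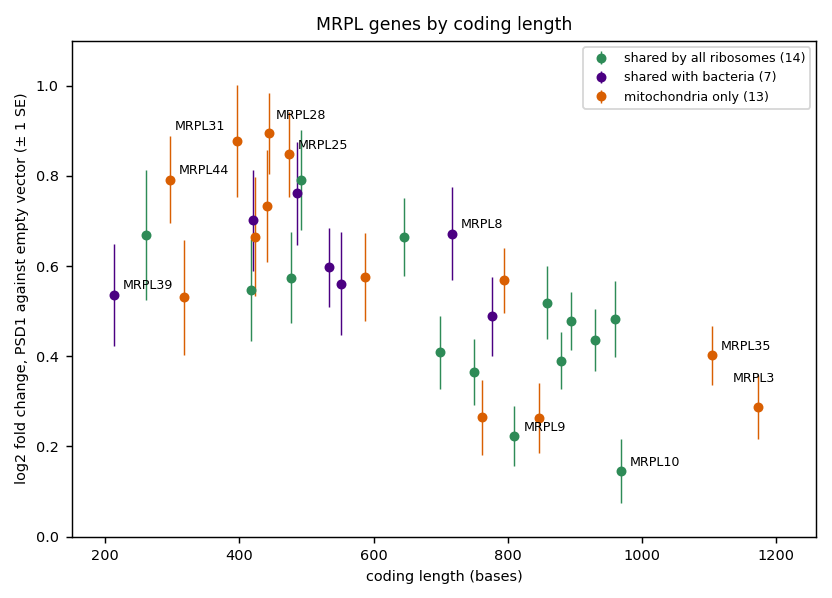
Log2 fold change of each MRPL gene in PSD1 cells against the empty vector (y axis, bars of 1 SE) by coding length in bases (x axis), coloured by class of protein. Genes of up to 588 bases lie at 0.53 or above, and all 5 genes with changes under 0.30 are among the 17 longer ones.

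The Puf3 elements of the MRPL genes were mostly close to the stop codon. The 34 genes held 42 elements, 1 in 26 genes and 2 in 8 genes. The first began 13 to 136 bases after the stop codon (median 47.5), and in 31 genes it began within 100 bases. The free base was A in 16 elements, T in 15, C in 10 and G in 1, the last in MRPL3. A cytosine 2 bases before an element, a position that Puf3 is known to favour, was found in 28 of 34 genes. In PSD1 cells 27 of those 28 rose (median log2 fold change 0.54), and 6 of the 6 others rose (median 0.62). The element also lay in 12 of 12 other large-subunit genes and 30 of 31 small-subunit genes, but in 5 of 35 oxidative phosphorylation genes and 3 of 76 cytosolic large-subunit genes.

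Outside the mitochondrial ribosome the element went with a smaller difference. Of 757 such genes that carried it 42.1% rose and 20.1% fell in PSD1 cells, with a median log2 fold change of 0.13. Of 4945 such genes without it 27.4% rose and 29.8% fell, with a median of -0.018. These sets were not matched for coding length. Of all 2647 annotated genes in the MRPL length range, with or without the element, 42.3% rose and 15.6% fell (median 0.18). The MRPL median of 0.55 was larger than that of each of these sets. Annotated 3′ ends were not used here, so an element in the window need not lie in the transcript.

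**Figure D5:**
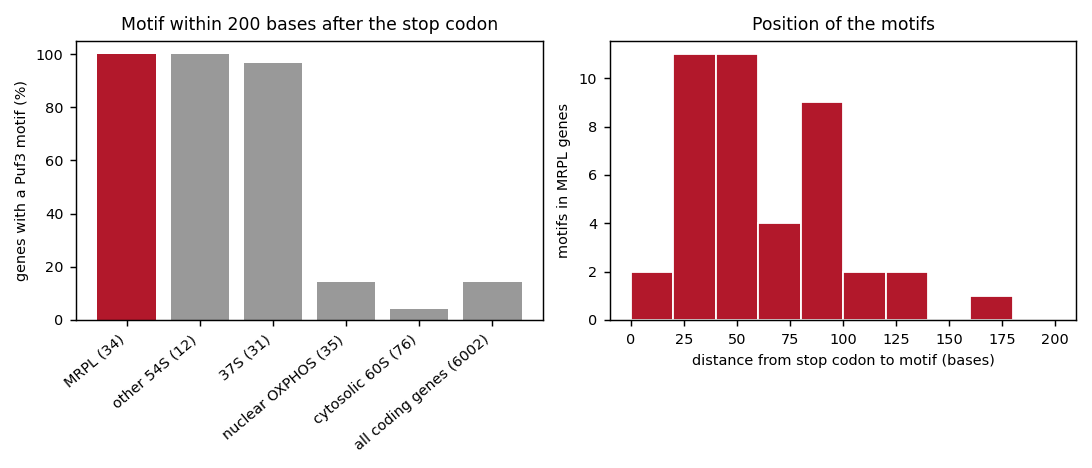
Left, share of genes with TGTANATA within 200 bases after the stop codon (y axis, %) for the MRPL genes, other gene lists and all nuclear coding genes, with the number of genes in brackets. Right, distance in bases from the stop codon to each of the 42 elements in MRPL genes, of which most begin within 100 bases.

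Upstream, 300 bases before the start codon were searched on both strands. The rapid growth element AATTTT, which precedes these genes in the yeast Candida albicans, was found in 14 of 34 MRPL genes (41.2%, against 54.1% of all nuclear coding genes). The CCAAT box bound by the Hap complex was found in 10 (29.4%, against 41.8%), while 88.6% of the oxidative phosphorylation genes held it. Of the 12 other large-subunit genes 9 (75%) held AATTTT and 7 (58.3%) the CCAAT box. Of the 31 small-subunit genes 10 (32.3%) and 14 (45.2%) did. The proteasome element GGTGGCAAA and the Pdr1/Pdr3 element TCCGCGGA were found in 0 of 34 (against 1.22% and 0.200%). The stress element AGGGG was found in 4 (11.8%, against 22.2%) and the ribosome biogenesis element GATGAG in 6 (17.6%, against 19.1%). None of these words was thus more common before MRPL genes than before all nuclear coding genes. A missing word says only that these letters are not in the window.

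The 34 genes are spread over 12 chromosomes, with 18 on the plus strand. MRPL19 overlaps the annotated gene YNL184C and MRPL51 overlaps YPR099C, so the values of both are uncertain where reads of either strand were counted together. In 9 genes a gene on the other strand starts within 300 bases upstream. Of those 9 neighbours 4 rose (44.4%) and 3 fell (33.3%) in PSD1 cells against the empty vector, where 29.7% and 26.9% of all genes tested did, so nothing is read from them.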

How the data were processed

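The authors deposited a table of counts per gene and a table of log2 values, each for 22 libraries. The deposited counts are whole numbers. Because the submitters' processing notes name RSEM, they were taken to be expected counts that the authors had rounded. The deposited log2 values are log2 of FPKM plus a pseudocount of 1, per the file headers and the values, and FPKM was recovered from them. Those notes list sacCer3 as the genome, with SAMtools 1.3, RSEM 1.3.0 and STAR 2.5.3a as tools. Annotation, strand setting and filters were not given in the sources used here. Columns were joined to samples by library number. The replicate number in the name of 2 count columns was not that of the label. Of the 7126 entries, 6048 matched the R64 annotation.

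edgeR 4.0.16 (R 4.3.3) kept 6278 genes with filterByExpr, scaled libraries by TMM and fitted 1 quasi-likelihood model, over all 22 libraries, whose terms were group and library series (first digit of the library number, 12 libraries in series 5 and 10 in series 6). Every group had libraries in both series. Benjamini-Hochberg adjustment ran over all genes tested. The SE is the absolute log2 fold change divided by the square root of F. CPM use TMM library sizes. On simulated counts with known changes for PSD1 against empty vector (6260 genes), 79% of changes of 0.5 and 98% of changes of 1 (log2) were recovered, and 3.80% of calls were false. The simulation changed 100 well-counted genes by each size, up and down alike, without a library series effect. In the data 1863 genes rose and 1689 fell, so these shares need not hold there. The alternatives were DESeq2 1.42.0 size factors, PSD1 left out of library sizes, no filter, DESeq2, limma 3.58.1 on log2 FPKM plus 1 or plus 0.1, only the 2 groups compared, no series term, a replicate block, either series alone, and each library left out. Figures came from matplotlib 3.10.9, and tables from scipy 1.17.1, numpy 2.4.6 and pandas 2.3.3 under Python 3.11.15.

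The members and gene lists were chosen with earlier results of these data known. For some MRPL genes library values are given singly or as the range and median of a group, in the comparisons described. These are the 4 with the largest and the 2 with the smallest change in PSD1 against empty vector, and any that did not pass. The 2 with the highest and the 1 with the lowest mean FPKM are also among them. So are the 4 with the smallest p in PSD1 pdr3 deletion against PSD1 and in PSD1 against V5-PSD1. From other lists, genes are taken from the 4 with the largest change that passed. HAP3, HAP4 and PUF3 were added to complete the list of regulators, after their values were seen. Same-group libraries differed beyond sampling noise (the lowest chi-square per degree of freedom was 13.8), so none was treated as a library deposited more than once. This does not show whether they are technical repeats.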

Additional observations from a re-analysis of the deposited data

Results flagged for a closer look

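Of 52 groups of values examined for a library that stood apart, 1 passed Dixon's 95% limit, where chance alone passes about 1 in 20. They were the 12 genes chosen above for library values and the MRPL index, in each of the 4 groups. MRPL31 in PSD1 pdr3-deletion cells was at 532 FPKM in replicate 3. The next lowest library of the group was at 676 FPKM and the highest at 719 FPKM, so the gap was 0.768 of the range, above the critical value of 0.625. On the CPM scale the same library was at 192 CPM, and the other 5 ran from 227 to 249 CPM.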

How the results depend on the processing

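The number of MRPL genes that rose in PSD1 cells against the empty vector ran from 28 to 34 under the 11 alternatives and from 33 to 34 with a library left out, and the median log2 fold change from 0.46 to 0.61 and from 0.50 to 0.62. For PSD1 pdr3-deletion against empty vector the count was 13 within library series 5 alone, and 30 or more otherwise. Leaving out a library gave 30 to 33, with medians of 0.47 to 0.59. For V5-PSD1 against empty vector the count of 0 became 1 with DESeq2 and 7 with the replicate number as a block. With a library left out it ran from 0 to 6 (6 without V5-PSD1 replicate 3), with medians of 0.12 to 0.25. For PSD1 against V5-PSD1 the count fell to 4 within series 5 alone, and ran from 25 to 30 with a library left out, with medians of 0.29 to 0.42. For PSD1 pdr3-deletion against PSD1 the count stayed at 0 in all of them, with medians of -0.068 to -0.018 with a library left out. No count of MRPL genes that fell left 0, and no median of a called comparison changed sign. Of single genes, MRPL10 passed in PSD1 against empty vector without empty-vector replicate 1 (adjusted p of 0.0468, edgeR), and MRPL17 and MRPL15 missed the threshold in PSD1 pdr3-deletion against empty vector in 13 and 8 of 33 alternatives. The causes of these shifts were not tested. Series 5, with the fewer calls, holds 12 libraries and series 6 holds 10.

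Deviations from the group means correlated at -0.13 to 0.61 between libraries with the same number (median 0.21, 21 of 31 pairs over 0.1) and at a median of -0.038 between those with different numbers (40 of 150 over 0.1). In none of the 5 comparisons were all pairs over 0.1 (5 of 6 pairs for PSD1 pdr3-deletion against PSD1) or did every library correlate best with its own number. The likeness of same-numbered libraries is a hint from the data, not from the design. With the replicate number as a block, 7 MRPL genes rose in V5-PSD1 against empty vector, and 34, 33, 0 and 30 rose in PSD1 against empty vector, PSD1 pdr3-deletion against empty vector, PSD1 pdr3-deletion against PSD1 and PSD1 against V5-PSD1. The lowest MRPL count in any library was 223, so counting error limits single libraries little for these genes.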
